A study of Mus musculus with 6 samples.

Results

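The genes described here are those of cell attachment to the basement membrane: the integrin subunits, the kindlins, the talins and the laminin chains. They were chosen by name alone (symbols starting with Itga, Itgb, Fermt, Tln, Lama, Lamb or Lamc), and 44 of the 14162 genes in the deposited values matched. The 44 were 16 integrin alpha subunits, 8 integrin beta subunits, 3 kindlins, 2 talins, 5 laminin alpha, 3 laminin beta and 3 laminin gamma chains. The other 4 share a name but are neither subunits nor talins: Itgb1bp1, Itgb1bp2 and Itgb3bp are named for binding an integrin beta subunit, and Tlnrd1 for a talin-like domain. Itgad, Itgax and Itgb2l match the names and were not analysed here. RNA came from mouse lung at stage E12.5, when the airway tree is branching. In 3 libraries, called Dnmt1KO, Dnmt1 was deleted by ShhCre, a Cre recombinase made under control of Shh, a gene switched on in the endoderm from which the airway lining forms. The other 3 libraries, called WT, were from wild-type littermates, and the labels name Cre in the Dnmt1KO group alone, so an effect of the Cre allele and one of Dnmt1 loss cannot be told apart. The labels name the tissue as lung with no sorting step. Mesenchyme, vessels and blood, where Shh is not normally made, are therefore in the same RNA. The labels do not say that each library is a separate embryo, so p-values measure only the spread between these samples.

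Integrins are cell-surface receptors made of 1 alpha and 1 beta subunit. Talins bind the tails of integrin beta subunits inside the cell and link them to actin, and kindlins bind the same tails at another site and help talin to switch the receptor on. Laminins are trimers of an alpha, a beta and a gamma chain that build the basement membrane under epithelia and around vessels and muscle, and integrins such as alpha3-beta1 and alpha6-beta4 bind them. In the lung the basement membrane separates the branching epithelium from the mesenchyme. Dnmt1 is the enzyme that copies methylation at CG sites onto newly made DNA strands.

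The deposited log2 values give back whole reads, which came to 18192629 to 21046831 per Dnmt1KO library and 20599736 to 25597662 per WT library. Dnmt1 stood at log2 values of 15.57, 15.40 and 15.31 in Dnmt1KO and 15.72, 15.74 and 15.76 in WT, so every Dnmt1KO library was below every WT library. The difference was -0.31 ± 0.09 (SE), or 80.7% of WT, with an adjusted p of 0.507 in limma and an exact two-sided permutation p of 0.1, the smallest that 3 against 3 allows. All 16 lung epithelium markers and all 12 mesenchyme markers were measured, none of them at 0 reads in any library. Dnmt1KO replicate 1 held 3 reads over 4 genes of the Y chromosome, and the other 5 libraries held 4155 to 5207. Heart muscle markers (8 of 9 measured) summed to 529 RPM (reads per 1000000 reads of the library) in Dnmt1KO replicate 2 and to 42.3 to 113 in the other libraries.

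Of the 44 genes, 1 rose in Dnmt1KO, 0 fell and 43 did not pass the test (limma over all genes, Benjamini-Hochberg adjusted p threshold of 0.05). The gene that rose was Fermt1, which encodes kindlin-1, the kindlin of epithelial cells. Over all 14162 genes, 40 (0.282%) passed as higher and 1 (0.00706%) as lower. At an unadjusted p under 0.05 there were 3 genes, or 6.82% of the 44 against 4.52% of all genes: Fermt1, Itga2b (integrin alphaIIb of platelets), both higher, and Lamb3 (the laminin beta3 chain of epithelia), lower. The same 1 higher and 0 lower passed when the recovered reads were tested with voom. Every Dnmt1KO library lay above every WT library for Fermt1 and Itga2b (2 of 44, 4.79% of all genes) and below for Lamb3 (1 of 44, 3.99% of all genes).

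The differences of the other genes lay on both sides of 0. Of the 44 log2 differences, 22 were positive and 22 negative, with a median of 0.0028, while the median over all genes was -5.88e-05. Their median absolute difference was 0.12 against 0.079 for all genes. The 44 also varied more between libraries of one group: the median SD of the log2 values was 0.228 in WT and 0.263 in Dnmt1KO, against 0.148 and 0.154 for all genes. For 22 of the 44 the 95% interval of the difference stayed within 1.5-fold of no change, against 72.0% of all genes, so for the other 22 a change of 1.5-fold was not excluded in at least one direction. Among 9 genes best known from epithelia, 1 rose, 0 fell and 7 differences were positive, with a median of 0.12. Among 8 measured genes of blood cell integrins and kindlin-3, 0 rose and 0 fell, and the median was 0.076.

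**Figure D1:**
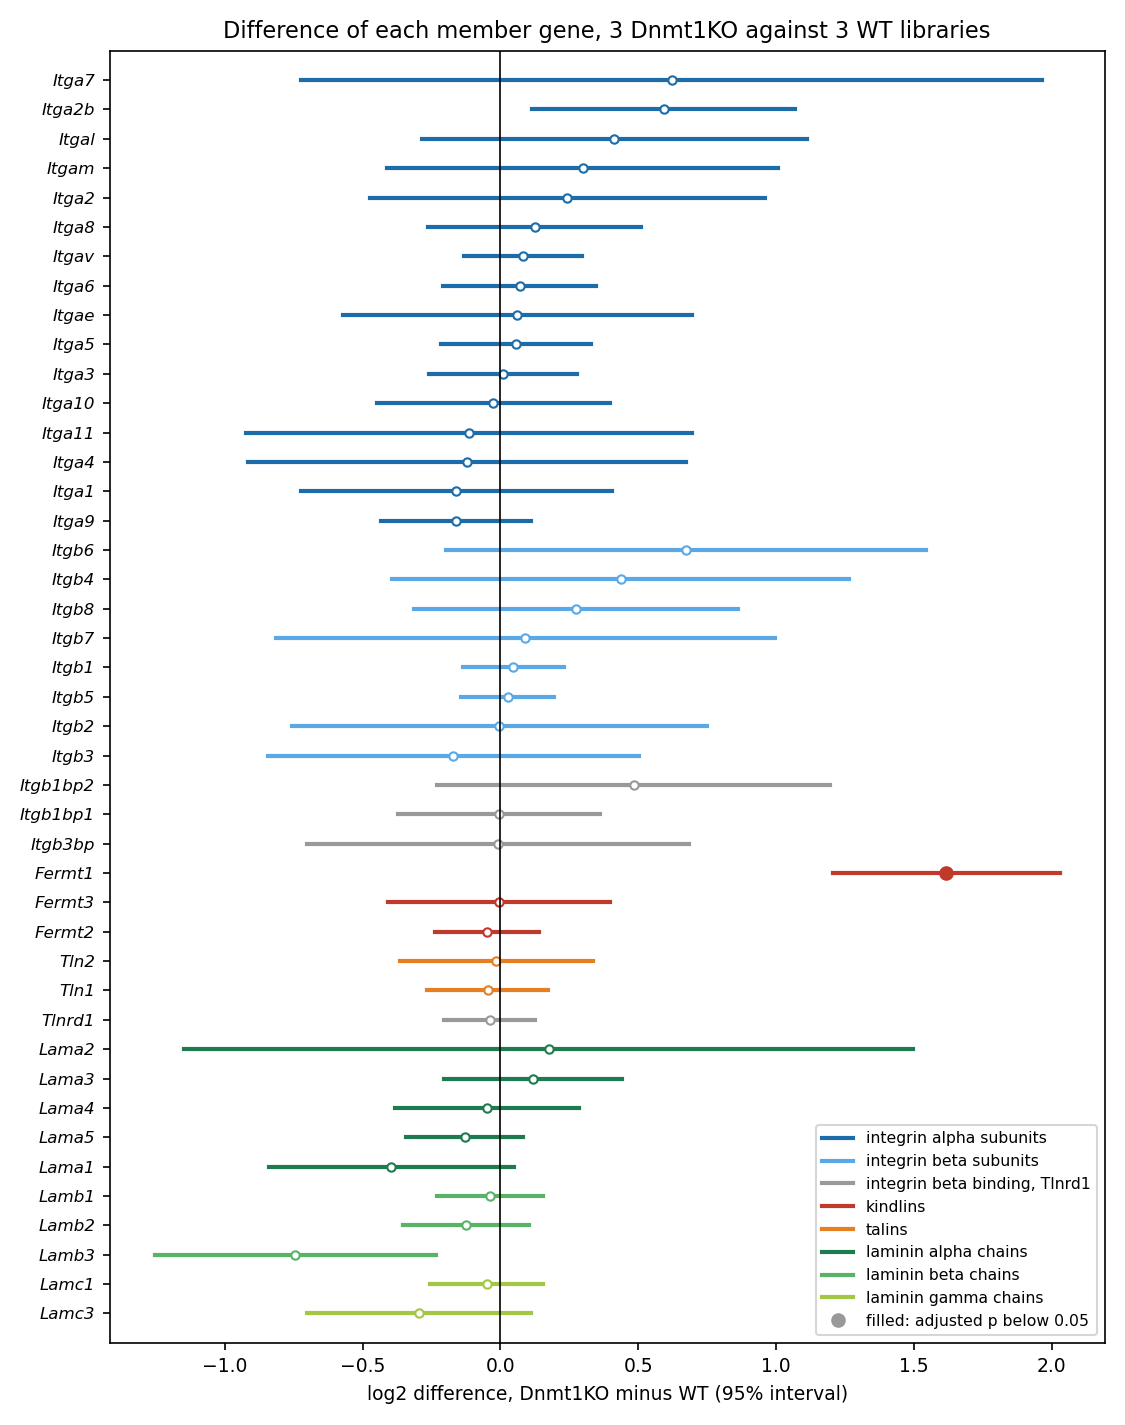
Difference of the genes, Dnmt1KO minus WT, as log2 on the horizontal axis, with its 95% interval from limma (n = 3 and 3) and colours for the kind of gene. Fermt1 at 1.62 is the single gene that passed; the other differences run from -0.74 (Lamb3) to 0.67 (Itgb6), and 1 of the 44 is not shown.

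The 3 kindlins have different known sites: kindlin-1 (Fermt1) in epithelia, kindlin-2 (Fermt2) in most adherent cells and kindlin-3 (Fermt3) in blood cells. Their promoters are shown because CG is the site that Dnmt1 keeps methylated and because they differ in how many they hold. Each line gives 250 bases before to 50 bases after the start of the gene in RefSeq (GRCm38.p6), 5′ to 3′ on the strand of the gene, with every CG in capitals. All 3 genes lie on the minus strand.
Fermt1: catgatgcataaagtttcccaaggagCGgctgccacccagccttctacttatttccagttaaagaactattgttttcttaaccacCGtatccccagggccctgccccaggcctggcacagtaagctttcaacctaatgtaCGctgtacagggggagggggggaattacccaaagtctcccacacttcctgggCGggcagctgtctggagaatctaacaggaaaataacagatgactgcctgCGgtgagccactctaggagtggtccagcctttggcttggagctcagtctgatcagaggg
Fermt2: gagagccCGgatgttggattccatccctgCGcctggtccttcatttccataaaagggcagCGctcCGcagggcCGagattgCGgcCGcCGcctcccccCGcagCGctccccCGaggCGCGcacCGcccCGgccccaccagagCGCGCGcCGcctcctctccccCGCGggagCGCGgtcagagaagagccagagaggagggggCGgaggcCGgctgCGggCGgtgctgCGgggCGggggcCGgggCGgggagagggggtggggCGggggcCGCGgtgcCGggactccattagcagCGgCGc
Fermt3: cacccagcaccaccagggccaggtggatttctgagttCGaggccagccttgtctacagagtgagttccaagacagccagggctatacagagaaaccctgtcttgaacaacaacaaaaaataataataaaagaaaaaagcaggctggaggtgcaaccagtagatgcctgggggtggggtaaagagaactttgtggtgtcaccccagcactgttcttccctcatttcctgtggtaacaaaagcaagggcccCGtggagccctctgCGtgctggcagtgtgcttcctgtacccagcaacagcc
The Fermt1 window (chr2:132945987-132946286) holds 5 CG and the Fermt3 window (chr19:7019420-7019719) holds 3. The Fermt2 window (chr14:45530016-45530315) holds 37. CG reads the same on both strands. Of 32851 promoters of this length, 62.0% hold at least 5 CG, 76.7% at least 3 and 5.58% at least 37, and the median is 7. Among the 44 genes, 29 matched the promoter table, with 32 promoters. Methylation was not measured, so these counts are a description of sequence.

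Fermt1 rose 3.07-fold (95% interval 2.31 to 4.08). Its log2 values were 10.38, 10.47 and 10.45 in Dnmt1KO replicates 1, 2 and 3 and 8.76, 8.56 and 9.13 in WT replicates 1, 2 and 3. The 3 Dnmt1KO libraries lay close together (SD 0.048) and far above all WT libraries (SD 0.29), with a gap of 1.25 between the lowest Dnmt1KO and the highest WT library. Read numbers behind these values were 238, 280 and 289 for Dnmt1KO and, for WT, 108, 74 and 127. The log2 difference was 1.62 ± 0.18 (SE, n = 3 and 3), with an adjusted p of 0.0107 in limma. Dnmt1KO replicate 1, the library with 3 reads over the Y genes, had a Fermt1 value like those of the other Dnmt1KO libraries. Whether the Y gene reads have a part in the Fermt1 values was not tested. Without Dnmt1KO replicate 1 the difference was 1.64 and the adjusted p 0.0797, and without Dnmt1KO replicate 2 these were 1.60 and 0.0582, so the call was lost with either left out. It held with any 1 of the other 4 left out. In bulk RNA, more cells of a type and more RNA per cell cannot be told apart.

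The summed epithelial markers overlapped between the groups. All 16 were measured with none at 0 in any library, 0 passed the test, and 8 differences were positive and 8 negative. Single markers did differ more often than genes at large: 4 of the 16 had an unadjusted p under 0.05 in limma, against 4.52% of all genes. The 4 were Sftpc, the surfactant protein C gene of distal epithelium (1.58 ± 0.25, SE), Id2 (0.56 ± 0.10), Esrp2 (-0.53 ± 0.13) and Foxa2 (-0.42 ± 0.18), of which Sftpc had the smallest adjusted p in limma at 0.0585. Esrp2, Foxa2, Id2 and Sftpc are named after their values were seen. The sum of the 16 ran from 937 to 1266 RPM in Dnmt1KO and from 985 to 1140 in WT. Epcam, an adhesion molecule of epithelial cells, differed by 0.037 ± 0.18 and Cdh1, which encodes E-cadherin, by 0.17 ± 0.16 (log2, SE). Nkx2-1, a transcription factor that defines lung epithelium, differed by -0.32 ± 0.15, and none of the 3 passed. Fermt1 reads were also set against each of the 16 markers within each library. The Dnmt1KO libraries all lay above the WT libraries for 15 and overlapped them for 1, Sftpc. All 16 ratios share the Fermt1 reads, so they are not separate results. Dnmt1KO had 0.0900, 0.129 and 0.0755 Fermt1 reads per Epcam read, and WT had 0.0357, 0.0246 and 0.0370. Per Cdh1 read the values were 0.128, 0.205 and 0.132 against 0.0573, 0.0414 and 0.0722. Per Nkx2-1 read they were 0.0920, 0.124 and 0.0803 against 0.0256, 0.0194 and 0.0323. The groups did not overlap in any of these 3 ratios. Per Sftpc read the values were 0.173, 0.292 and 0.312 against 0.241, 0.151 and 0.402. Markers of liver and gut endoderm, other epithelia, were also higher in Dnmt1KO. All 4 measured of 7 had positive differences and an unadjusted p under 0.05, against 4.52% of all genes. Their median log2 difference was 2.48, with none at 0 in any library and 0 passing the test. Their sums were 14.9 to 28.6 RPM in Dnmt1KO and 3.01 to 5.29 in WT. The part of the Sftpc and of the liver and gut levels in the Fermt1 difference was not tested. The read ratios here were chosen after the values were seen and carry no test.

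Fermt2 and Fermt3 did not pass. Fermt2 stood at 14.10, 13.99 and 13.98 in Dnmt1KO and 14.03, 14.00 and 14.18 in WT, and the groups overlapped. Its log2 difference of -0.049 ± 0.08 (SE) had a 95% interval of -0.24 to 0.14. Fermt3 stood at 10.37, 10.71 and 10.26 against 10.70, 10.19 and 10.46, also overlapping, with a difference of -0.0050 ± 0.18 and a wider interval of -0.41 to 0.40. The leukocyte markers (12 of 12 measured, none at 0) summed to 130 to 145 RPM in Dnmt1KO and 125 to 154 in WT. The balance between kindlin-2 and kindlin-1 did not overlap between the groups. There were 13.2, 11.5 and 11.6 Fermt2 reads for each Fermt1 read in Dnmt1KO and 38.8, 43.8 and 33.2 in WT. This ratio was chosen after the values were seen, carries no test and is not separate from the Fermt1 difference.

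The talins, which act on the same integrin tails, did not pass either. Tln1, the talin of most tissues, stood at 15.92, 15.77 and 15.63 in Dnmt1KO and 15.90, 15.73 and 15.84 in WT, a log2 difference of -0.046 ± 0.10 (SE) with an interval of -0.27 to 0.17. Tln2, best known from muscle and brain, stood at 13.16, 13.37 and 12.82 against 13.36, 13.00 and 13.03, a difference of -0.015 ± 0.15 with an interval of -0.37 to 0.34. In both genes the groups overlapped. Tlnrd1, an actin-bundling protein and not a talin, lay between 14.29 and 14.41 in all 6 libraries.

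**Figure D2:**
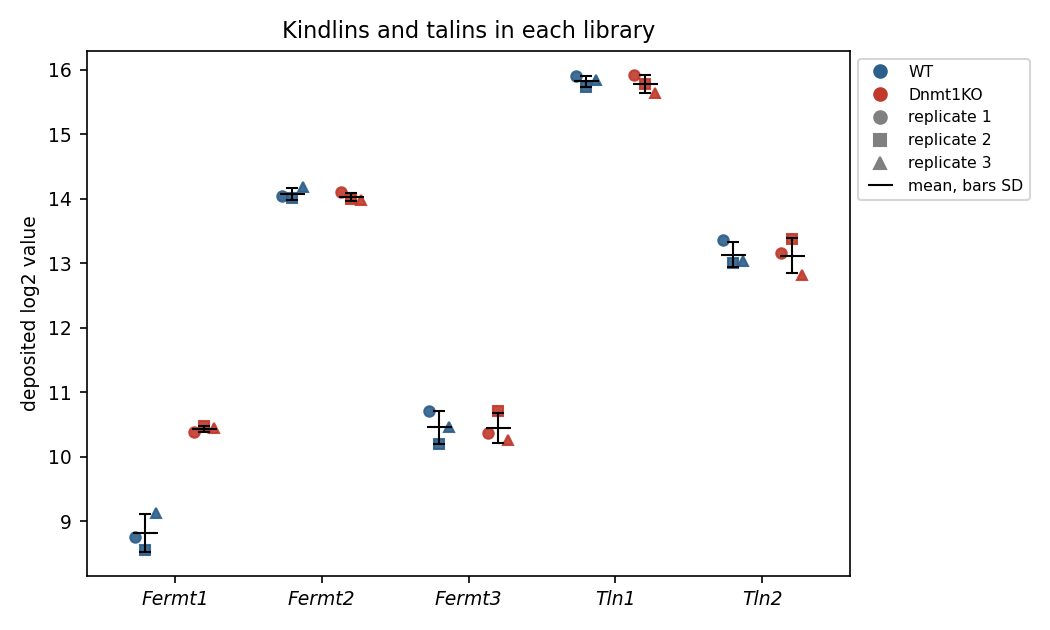
Deposited log2 value of the 3 kindlins and 2 talins in each library, WT and Dnmt1KO side by side, points by replicate and lines for the mean with SD (n = 3). Fermt1 alone separates, from 8.56 to 9.13 in WT to 10.38 to 10.47 in Dnmt1KO; values are not per length, so heights of different genes are not compared.

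Of the 8 integrin beta subunits, 0 rose and 0 fell, with 6 differences positive and a median of 0.068. Itgb1, which pairs with most alpha subunits and is the main receptor subunit for laminin and collagen, did not pass. It stood at 15.65, 15.59 and 15.71 in Dnmt1KO and 15.51, 15.64 and 15.67 in WT, and the 95% interval of its difference ran from 91.0% to 117% of WT. Itgb5 was measured as tightly, with an interval of 90.6% to 114%. Itgb4, the partner of alpha6 in hemidesmosomes, stood at 10.09, 10.00 and 8.82 against 9.70, 8.87 and 9.03. Dnmt1KO replicate 3 was the lowest of these 6 libraries, the groups overlapped, and the difference of 0.44 ± 0.36 (SE) had an interval of -0.39 to 1.27. Itgb6, an epithelial subunit whose pairing with alphav releases active TGF-beta, was thinly covered, Dnmt1KO having 47, 27 and 65 reads and WT 26, 34 and 35. Its difference of 0.67 ± 0.38 (interval -0.20 to 1.54, unadjusted p 0.113) was the largest among the beta subunits and did not pass. At these read numbers a change of 2-fold in Itgb6 was not excluded.

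Among the 16 integrin alpha subunits 0 rose and 0 fell; 11 differences were positive and the median was 0.066. Among the laminin receptor subunits, Itga3 and Itga6 differed by less than their SE, while Itga7 of muscle, with 7 to 39 reads, differed by 0.62 ± 0.59 (SE, interval -0.72 to 1.97). Itga3 stood at 13.70, 13.76 and 13.59 in Dnmt1KO and 13.47, 13.91 and 13.63 in WT, a difference of 0.010 ± 0.12 (SE). Itga6 stood at 13.02, 12.81 and 12.86 against 13.02, 12.59 and 12.88, a difference of 0.07 ± 0.12. Itga8, a mesenchymal subunit that binds nephronectin, stood at 14.08, 13.72 and 13.57 against 13.34, 13.84 and 13.83 (difference 0.12 ± 0.17), and Itgav, the alphav subunit, at 13.29, 13.22 and 13.10 against 13.21, 12.99 and 13.16 (difference 0.083 ± 0.09). The groups overlapped in all 4. Itgal, the alphaL subunit of leukocytes, had 54 to 103 reads in Dnmt1KO and 49 to 81 in WT, and its difference of 0.41 ± 0.30 did not pass.

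Itga2b and Itgb3 encode the 2 subunits of the platelet fibrinogen receptor, and their differences had opposite signs, neither past the test. Itga2b stood at 10.68, 11.52 and 10.87 in Dnmt1KO and 10.49, 10.30 and 10.52 in WT. Every Dnmt1KO library was above every WT library, with replicate 2 the highest and a gap of 0.17. The difference was 0.59 ± 0.21 (SE, interval 0.12 to 1.07, unadjusted p 0.0206), and it did not pass (adjusted p 0.817 in limma). Itgb3, described here because its values were seen beside Itga2b, stood at 10.45, 11.62 and 10.58 against 11.27, 10.78 and 11.11, with the highest library and the 2 lowest in Dnmt1KO. Its difference was -0.17 ± 0.29 (interval -0.85 to 0.50). Itga2b reads per Itgb3 read were 1.18, 0.934 and 1.22 in Dnmt1KO and 0.582, 0.713 and 0.660 in WT. The Itga2b ratios given here were chosen after the values were seen and carry no test. The 10 markers of megakaryocytes and platelets, all measured and none at 0, summed to 31.7, 69.0 and 42.8 RPM in Dnmt1KO and 42.3, 44.5 and 39.6 in WT, with Dnmt1KO replicate 2 the highest as in both integrins. Itga2b reads per read of Pf4, a platelet chemokine that differed by 0.19 ± 0.25, were 1.80, 1.64 and 1.27 against 1.42, 0.864 and 1.34, and overlapped. The part of this cell type in the Itga2b difference was not tested.

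The 3 proteins named for binding integrin beta subunits did not pass. Itgb1bp1, which encodes ICAP-1, an inhibitor that competes for the beta1 tail, stood at 11.31, 11.60 and 11.74 in Dnmt1KO and 11.30, 11.82 and 11.53 in WT, a difference of -0.0057 ± 0.16 (SE). Itgb1bp2, which encodes melusin of heart and skeletal muscle, stood at 8.45, 8.89 and 7.72 against 7.87, 7.88 and 7.85 (difference 0.48 ± 0.31). Its highest library was Dnmt1KO replicate 2, where the heart muscle markers were also highest. The other Dnmt1KO libraries did not follow that order. Replicate 1, at 8.45, had the lowest heart sum of all libraries (42.3 RPM). Replicate 3, the lowest of all for Itgb1bp2 at 7.72, had a heart sum of 113 RPM, above every WT library. Whether heart muscle has a part in the Itgb1bp2 values was not tested.

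Among the laminin chains of epithelial basement membranes, the beta3 chain (Lamb3) was lower in Dnmt1KO without passing the test, while the alpha3 chain (Lama3) lay on both sides of WT. Lamb3 stood at 10.39, 10.17 and 10.98 in Dnmt1KO and 10.98, 11.54 and 11.25 in WT. The groups all but touched: Dnmt1KO replicate 3 was 0.0081 below WT replicate 1, and both had 19.8 RPM. Lamb3 reached 59.7% of WT (interval 41.9% to 85.0%), a log2 difference of -0.74 ± 0.22 (SE) with an unadjusted p of 0.00951 and an adjusted p of 0.573 in limma. Without Dnmt1KO replicate 3 the adjusted p was 0.0808. Lama3 stood at 13.32, 12.72 and 12.92 against 12.89, 12.88 and 12.85, with Dnmt1KO on both sides of WT (difference 0.12 ± 0.14).

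The balance of these chains was set out within each library, as a ratio chosen after the values were seen and without a test. Lamb3 reads are the denominator, so the ratio is not separate from the Lamb3 difference. The Lama3 groups overlapped, and Dnmt1KO replicate 1, with the largest ratio, also had the highest Lama3 value (13.32). Dnmt1KO had 7.63, 5.88 and 3.86 Lama3 reads per Lamb3 read (5.79 ± 1.88, SD, n = 3), and WT had 3.75, 2.53 and 3.03 (3.10 ± 0.61). The groups did not overlap, with Dnmt1KO replicate 3 just above WT replicate 1. Per read of an epithelial marker, Lamb3 lay lower in every Dnmt1KO library than in any WT library for 13 of the 16 markers. It overlapped for Esrp2, Foxa2 and Sox9. All 16 ratios share the Lamb3 reads, so they are not separate results. They were chosen after the values were seen and carry no test, and besides Lamb3 the same count was made for Fermt1 alone. The values were 0.0907, 0.105 and 0.109 reads per Epcam read against 0.167, 0.196 and 0.161. Per Nkx2-1 read the values were 0.0928, 0.101 and 0.116 against 0.120, 0.155 and 0.140.

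**Figure D3:**
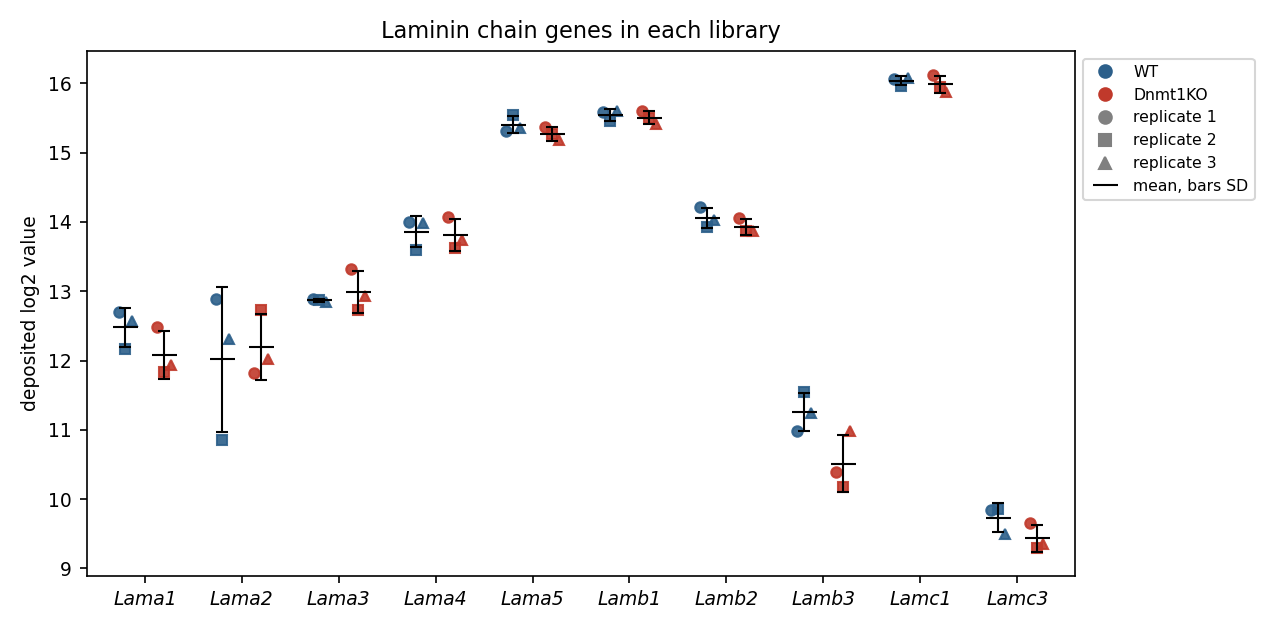
Deposited log2 value of laminin chain genes in each library, WT and Dnmt1KO side by side, points by replicate and lines for the mean with SD (n = 3). Lamb3 runs from 10.17 to 10.98 in Dnmt1KO and 10.98 to 11.54 in WT, while Lama2 spreads from 10.86 to 12.89 within WT; heights of different genes are not compared.

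**Figure D4:**
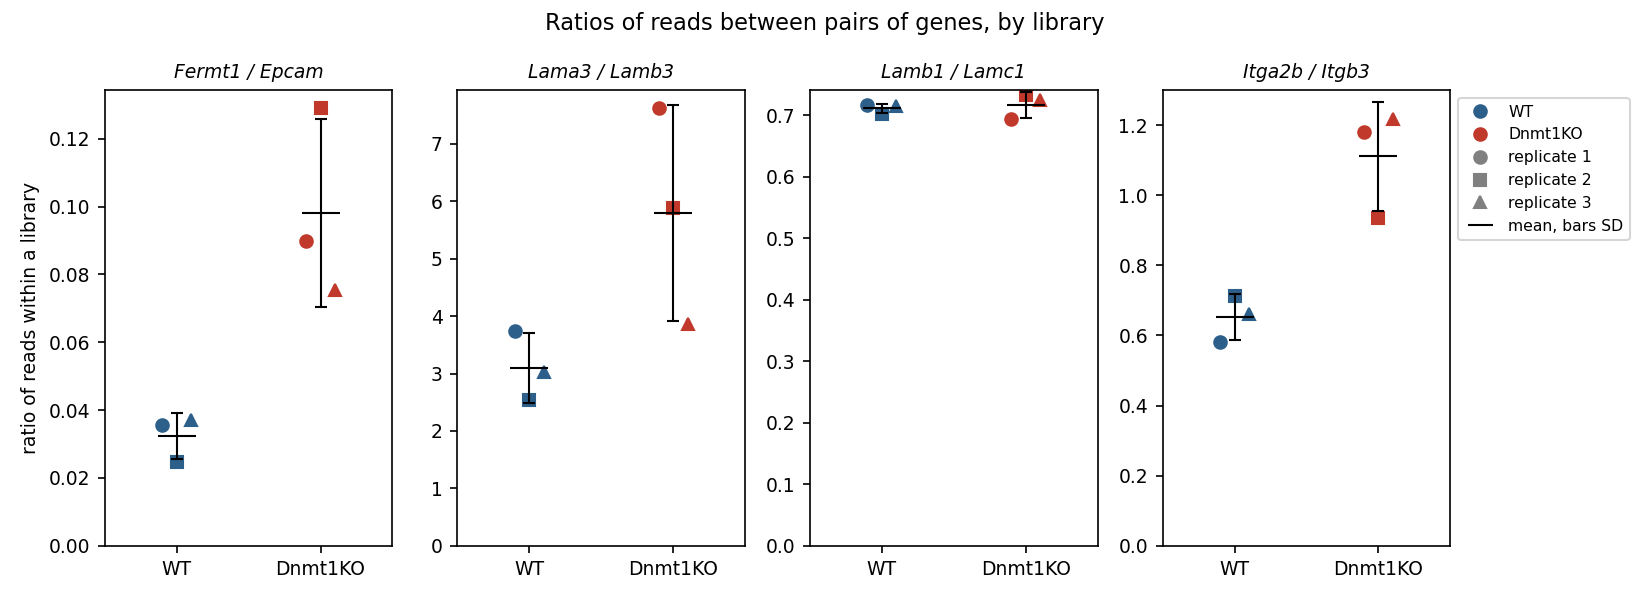
Ratio of the reads of 2 genes within each library, 1 pair in each panel and vertical axes from 0, points by replicate and lines for the mean with SD (n = 3). Fermt1 per Epcam, Lama3 per Lamb3 and Itga2b per Itgb3 separate the groups, while Lamb1 per Lamc1 overlaps. The pairs were chosen after the values were seen and carry no test.

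The broadly made laminin chains, which with alpha chains build laminin-111, laminin-411 and laminin-511, did not pass. Lamb1 stood at 15.60, 15.50 and 15.41 in Dnmt1KO and 15.58, 15.45 and 15.60 in WT (difference -0.038 ± 0.08, SE). Lamc1 stood at 16.13, 15.95 and 15.88 against 16.07, 15.96 and 16.08 (difference -0.050 ± 0.09). The balance of these 2 chains overlapped between the groups, with 0.694 to 0.734 Lamb1 reads per Lamc1 read in Dnmt1KO and 0.702 to 0.716 in WT. Lama5, the alpha chain of laminin-511 in airway basement membrane, stood at 15.37, 15.27 and 15.18 against 15.31, 15.54 and 15.36 (difference -0.13 ± 0.09). Lama1, the alpha chain of the early embryonic laminin-111, stood at 12.48, 11.84 and 11.93 against 12.71, 12.16 and 12.57. The groups overlapped in Lama5 and Lama1, and the Lama1 difference of -0.40 ± 0.19 (interval -0.84 to 0.05, unadjusted p 0.0748) was the largest among the alpha chains. Lamb2 differed by -0.13 ± 0.10 and Lamc3 by -0.30 ± 0.18, and neither passed. All 3 beta chains had negative differences, of which only the Lamb3 groups were apart.

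Lama2, the alpha chain of muscle and mesenchymal basement membranes, was the least certain laminin and is described because of the spread seen in it. It stood at 11.83, 12.73 and 12.02 in Dnmt1KO and 12.89, 10.86 and 12.31 in WT, from 367 reads in WT replicate 2 to 1895 in WT replicate 1. Its difference of 0.17 ± 0.54 (SE) had an interval of -1.15 to 1.5, and it was -0.40 without WT replicate 2. A change of 2-fold in either direction was therefore not excluded for Lama2. The 17 genes not picked for full statistics, among them Itga7, Itgb5 and Tlnrd1 described above, did not pass. Their log2 differences ran from -0.16 to 0.62, with 8 positive and 9 negative and a smallest unadjusted p of 0.213 in limma.

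Per length, Itgb1 was the most abundant of the 44. On the scale of RPM per 1000 bases of exon (RPKM), its WT level was 127 ± 7.20 (SD, n = 3), above all WT values of the next gene. Lamc1 (85.7 ± 4.68) and Lamb1 (79.6 ± 5.17) followed and overlapped each other in WT. Tln1 (67.1 ± 4.60) lay below both and above Fermt2 (50.9 ± 3.83), which overlapped Itgb5 (47.3 ± 0.79), the beta5 subunit that binds vitronectin. The order of the laminin alpha chains in WT was Lama5 (37.0 ± 2.85), Lama4 of vessels (24.1 ± 3.76), Lama3 (6.78 ± 0.10), Lama1 (5.90 ± 1.16) and Lama2 (4.80 ± 2.87), and the last 3 overlapped. Lamb3 stood at 4.69 ± 0.86 in WT and 2.88 ± 0.87 in Dnmt1KO. Fermt1 ranked 37 of 44 in WT at 0.901 ± 0.196 and reached 2.76 ± 0.089 in Dnmt1KO, still below Fermt3 (5.34 ± 0.89) and Fermt2 (49.7 ± 2.34) there. Itgb6 (0.230 ± 0.055) and Itga7 (0.233 ± 0.144) were the lowest in WT and overlapped. Of the 44, 21 lay above the median log2 value of all genes.

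**Figure D5:**
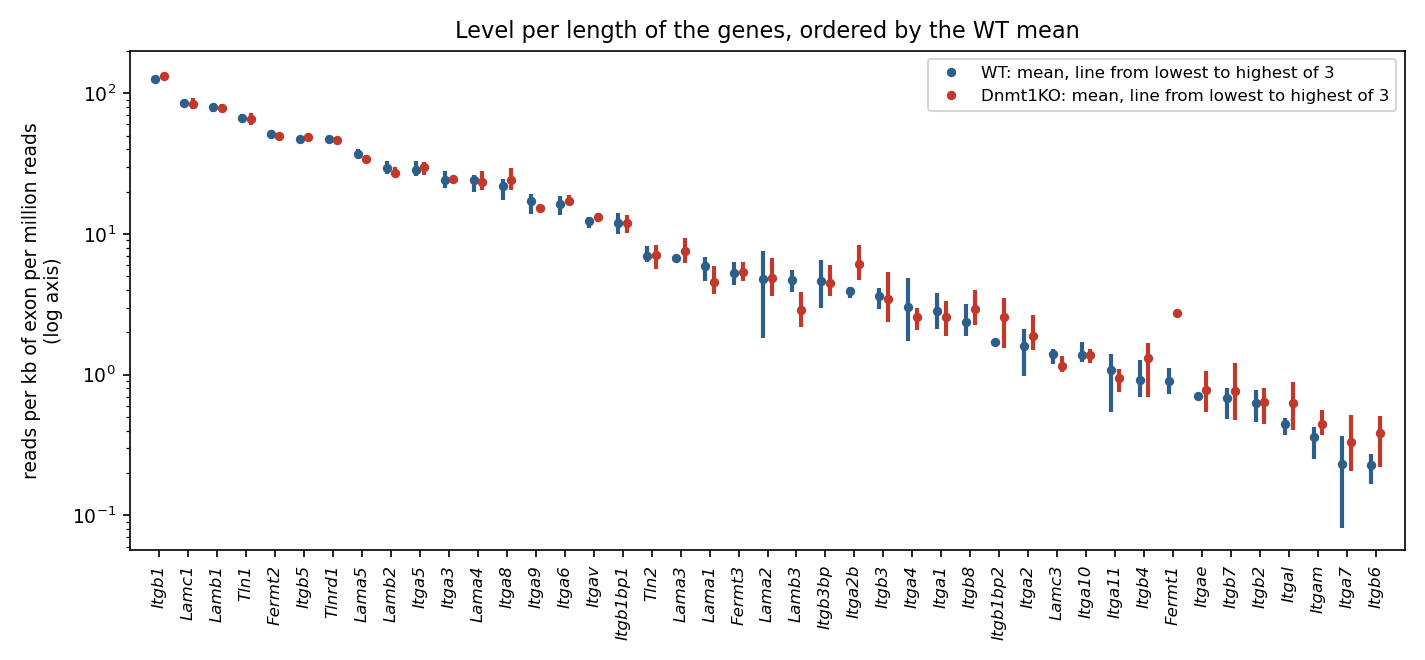
Level of the genes per length (RPKM, log axis) in WT and Dnmt1KO, points for the mean of 3 libraries and lines from the lowest to the highest, ordered by the WT mean; 1 of the 44 is not shown. Itgb1 leads at 127 in WT and Itgb6 is last at 0.230, overlapping Itga7; Fermt1 moves from 0.901 to 2.76.

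The other genes of integrin adhesion gave no call. Of 43 listed adaptors and kinases that join integrins to actin and to signalling, 41 were measured, and 0 rose and 0 fell. Their median log2 difference was -0.047, with 14 positive and 27 negative. An unadjusted p under 0.05 was found for 3 (7.32%, against 4.52% of all genes). Ptk2b, a kinase related to focal adhesion kinase, differed by 0.84 ± 0.25 (SE, adjusted p 0.573 in limma). Nedd9, a scaffold of the Cas family, differed by -0.70 ± 0.16 (adjusted p 0.212), and Kank1, a talin-binding protein at the rim of adhesions, by -0.30 ± 0.11 (adjusted p 0.850). Without Dnmt1KO replicate 3 the Nedd9 difference was -0.89 with an adjusted p of 0.0175. Of 35 listed basement membrane components and integrin ligands other than laminins, 33 were measured, 0 rose and 0 fell, and the median was -0.081 with 13 positive and 20 negative. Of these, 4 (12.1%, against 4.52% of all genes) had an unadjusted p under 0.05. Over all genes, 3.99% had lower values in every Dnmt1KO library than in any WT library. That held for all 4 of these, which were already picked by their p. They were Ntn4, a netrin that binds laminin (-1.07 ± 0.25, adjusted p 0.264), Col4a6, a collagen IV chain (-0.29 ± 0.09, adjusted p 0.649), Smoc2, a secreted matricellular protein (-0.97 ± 0.33, adjusted p 0.817), and Tgfb3, a growth factor whose latent form binds integrins (-0.38 ± 0.16, adjusted p 1). Tgfb3 was named after its values were seen. With voom on the recovered reads both lists also gave 0 calls.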

How the data were processed

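RNA-seq libraries of mouse lung, 3 per genotype, were assigned to groups from their titles. The authors deposited 1 value per gene and library, here read as log2 values from their range and structure: raised to a power of 2, each gave a whole number of reads plus 0.5, times a constant of the library, for all genes within 1e-06 reads. Those reads give the depths, the ratios and the levels per length. The submitters' processing notes name STAR, limma and the build mm9. Counter, annotation, gene filter and scaling: not given in the sources used here. Every gene had a total of at least 60 reads.

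Symbols were matched by gene identifier to GENCODE M21 on GRCm38 (13967 of 14162 genes), and merged exon lengths came from the same annotation. Promoters came from RefSeq. With limma 3.58.1 (R 4.3.3), a linear model was fitted to the deposited log2 values of all 6 libraries with genotype as the only term, trend and robust estimation, and Benjamini-Hochberg adjustment over all genes. The fit was tested on simulated data. Statistics per gene are given for genes that passed, the 2 smallest p in each role, all kindlins and talins, a list of main subunits and chains, and the 3 smallest p in each further list. Itgb3 and Lama2 were added after their values were seen. The counts include 1 gene whose values are not reported here. The genes and lists were chosen with earlier results of these data known. Alternatives were a replicate block, a filter on low values, quantile and total scaling, moderation without trend, sample weights, voom on the recovered reads, and leaving out each library.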

Additional observations from a re-analysis of the deposited data

How the results depend on the processing

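Of the 13 alternatives, the low-value filter removed Fermt1 itself. In the other 12 it kept its direction, and it passed in all except those without Dnmt1KO replicate 1 or without Dnmt1KO replicate 2. With the lowest 25% of genes left out 0 member genes passed as higher, among 31 still tested. Leaving out 1 library at a time gave a Fermt1 log2 difference of 1.49 to 1.78 and 0 to 1 member genes called higher. No other member passed in any of them, and the smallest adjusted p was 0.0808 (Lamb3, without Dnmt1KO replicate 3). Over all genes, the calls as higher were 0 with the low-value filter and 15 to 42 with 1 library left out. The calls as lower were 0 with the low-value filter, 0 without trend, 12 with sample weights and 0 to 17 with 1 library left out. Among adhesion adaptors and kinases, 1 gene (Nedd9) passed as lower with sample weights and 0 to 1 with 1 library left out. The cause of these shifts was not tested.

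With a replicate block, 26 of all genes passed as higher and 0 as lower, and Fermt1 passed with an adjusted p of 0.0356. Same-numbered libraries deviated with correlations of 0.087, -0.17 and 0.41, so the numbers do not show pairing.

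Of 345 member differences recomputed, 310 kept direction and call. Of the 27 with full statistics, 13 kept their sign throughout and 14, all with a difference below its SE in the main fit, did not. With sample weights the log2 difference was 0.091 for Fermt3, -0.00035 for Itgb1, 0.036 for Itgb3 and 0.12 for Tln2. Scaled to total reads it was 0.010 for Fermt3, 0.0094 for Itgb1bp1 and 5.95e-05 for Tln2. With quantile normalization it was 0.00025 for Itgb1bp1 and 0.0064 for Tln2, and with voom 0.025 for Itgb1bp1. With 1 library left out it ran from -0.087 to 0.0051 for Fermt2, -0.14 to 0.12 for Fermt3, -0.090 to 0.13 for Itga3, -0.051 to 0.16 for Itga6, -0.039 to 0.23 for Itga8, -0.0016 to 0.077 for Itgb1, -0.13 to 0.13 for Itgb1bp1, -0.54 to 0.048 for Itgb3, -0.40 to 0.61 for Lama2, -0.047 to 0.25 for Lama3, -0.085 to 0.0075 for Lamb1, -0.12 to 0.0033 for Lamc1, -0.12 to 0.025 for Tln1 and -0.14 to 0.13 for Tln2. The planned change of pseudocount was not run, since the values are log2. Low read numbers limit 8 members: Itga7, Itgae, Itgal, Itgam, Itgb1bp2, Itgb2, Itgb6 and Itgb7. Each had fewer than 110 reads in every library, from 7 to 103. Genes low in some libraries only are not among them, such as Fermt1 (108, 74 and 127 reads in WT) and Itga11 (56 to 168).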

Other observations

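Itga4, Itga11 and Itga7 varied more within WT than between the groups, with WT replicate 2 the lowest. Itga7 rests on 7 to 39 reads per library. Itga8, a mesenchymal subunit, was instead lowest in WT replicate 1, at 13.34, 13.84 and 13.83 in WT replicates 1, 2 and 3. Itga4, the alpha4 subunit that binds fibronectin and VCAM-1, stood at log2 values of 12.24, 10.80 and 11.26 in WT and 11.37, 11.54 and 11.02 in Dnmt1KO. Itga11, a collagen receptor subunit of fibroblasts, stood at 9.40, 8.16 and 9.47 in WT against 9.13, 8.60 and 8.95, and Itga7, a laminin receptor subunit of muscle, at 7.30, 5.25 and 6.75 against 7.79, 6.90 and 6.48. WT replicate 2 was the lowest WT library for 26 of the 44 members (59.1%) and for 34.2% of all genes. Summed markers were also lowest of the WT libraries there for endothelium (548 against 832 and 849 RPM, reads per 1000000 reads of the library), smooth muscle (260 against 514 and 741) and neural cells (25.1 against 58.5 and 118), while epithelial markers were highest there (1140). The mesenchyme markers were not lowest there, at 6389, 5390 and 5360 in WT replicates 1, 2 and 3. In Dnmt1KO, replicate 3 was the lowest library for 26 of the 44 members (59.1%), against 36.6% of all genes, and replicate 1 the highest for 27 (61.4%), against 34.0%. The part of these marker levels in the member values was not tested. These genes were chosen after their values were seen.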
